A study of Homo sapiens with 2 samples.

Results

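This account follows 10 genes of the RET receptor pathway in TPC-1 cells, out of 58884 genes in the deposited table. They were chosen by name: RET and CCDC6, which are the fusion partners in this cell line, GFRA1, the co-receptor through which RET binds its ligand GDNF, and 7 proximal adaptors and effectors (SHC1, GRB2, GAB1, FRS2, DOK1, PTPN11 and SOS1). All 10 were in the table. TPC-1 is an established human papillary thyroid carcinoma line. Control siRNA was given to the cells of 1 library, and siRNA directed at XPR1, a phosphate exporter, to those of the other. Neither the siRNA sequence nor a time point is given in the sources used here. Both libraries come from the same fusion-carrying line, and no replicate and no line without the fusion was analysed here. No test between the conditions was possible, so "higher" and "lower" below describe these 2 libraries, and intervals cover counting error only.

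RET is a receptor tyrosine kinase that responds to ligands of the GDNF family, which reach it bound to a GFRA co-receptor. Tyrosines in its tail then recruit SHC1, FRS2 and DOK1. SHC1 and FRS2 bring in GRB2, which carries SOS1 to RAS and GAB1 to the lipid kinase PI3K and to the phosphatase encoded by PTPN11. In papillary thyroid carcinoma a chromosome 10 rearrangement can join the start of CCDC6, a coiled-coil protein, to the kinase part of RET. The fused protein forms dimers through the coiled coil, needs no ligand, lacks the receptor's extracellular part, and is transcribed from the CCDC6 promoter. Follicular thyroid cells, from which these tumours arise, normally make little RET.

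The exon ends that meet in this fusion are shown because they decide what a gene-level value of RET or CCDC6 can count. CCDC6 exon 1 lies at chr10:59906122-59906656 on the minus strand and RET exon 12 at chr10:43116584-43116731 on the plus strand (GRCh38, GENCODE 29). The last 60 bases of the first and the first 60 bases of the second are printed 5′ to 3′ from the reference transcripts, not from reads of these libraries, with the codon next to the junction in capitals.
CCDC6 exon 1, end: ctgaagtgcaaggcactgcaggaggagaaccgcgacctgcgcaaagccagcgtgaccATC
RET exon 12, start: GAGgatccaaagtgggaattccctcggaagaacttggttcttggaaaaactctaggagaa
CCDC6 exon 1 ends after 101 whole codons and RET exon 12 starts after 712 whole codons, with 0 bases left over in both, so the join keeps the reading frame. The fusion thus keeps 402 codons of RET.

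The promoters on the 2 sides of the rearrangement are given as context for which promoter drives RET sequence in this line (RefSeq, GRCh38.p14, 250 bases before to 50 after the start). Capitals mark matches to the GC box GGGCGG on either strand. Some adjacent matches in the RET promoter share a base.
CCDC6 promoter, chr10:59906507-59906806, minus strand: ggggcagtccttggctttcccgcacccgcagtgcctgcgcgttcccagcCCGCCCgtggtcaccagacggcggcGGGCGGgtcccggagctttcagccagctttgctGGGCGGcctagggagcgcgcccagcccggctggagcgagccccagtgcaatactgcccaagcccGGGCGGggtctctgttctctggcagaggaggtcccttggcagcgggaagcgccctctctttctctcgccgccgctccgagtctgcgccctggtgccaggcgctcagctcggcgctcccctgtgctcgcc
RET promoter, chr10:43076819-43077118, plus strand: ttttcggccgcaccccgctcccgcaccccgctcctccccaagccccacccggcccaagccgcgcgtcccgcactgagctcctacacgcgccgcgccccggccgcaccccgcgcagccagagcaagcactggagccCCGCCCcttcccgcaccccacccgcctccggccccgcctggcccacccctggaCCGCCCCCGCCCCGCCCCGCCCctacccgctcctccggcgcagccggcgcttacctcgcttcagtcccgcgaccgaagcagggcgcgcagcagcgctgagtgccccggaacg
Both are rich in G and C, with 72.3% for CCDC6 and 78.7% for RET against a median of 58.7% over 35116 promoters of the same length. The GC box had 4 matches in the CCDC6 promoter and 5 in the RET promoter, and 45.0% of all promoters hold at least 1. Neither held the CCAAT box CCAAT, found in 34.6% of all promoters on either strand, the TATA box TATAAA (11.5%), the AP-1 site TGANTCA (7.71%) or the E-box CACGTG (7.26%). RefSeq lists a further start for RET, which is not shown. A match is a run of letters and not evidence of binding.

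XPR1 itself went from 39.2 TPM with control siRNA to 5.31 TPM with XPR1 siRNA, 13.5% of its control value. TPM is a length-corrected share of all transcripts in a library. The libraries held about 15777908 and 15153195 counted reads, numbers recovered from the TPM values. Of the 7 thyroid markers, PAX8 was 588 and 409 TPM and FOXE1 11.1 and 13.7 TPM, whereas NKX2-1, TSHR and SLC5A5 were listed at 0 in both. The thyroid markers summed to 600 and 423 TPM. Of 8 markers of C cells and other neuroendocrine cells, which are the thyroid cells that normally carry RET, 1 reached 1 TPM in either library. That was CALCB at 1.26 and 0 TPM, and their sum was 2.00 and 0.625 TPM, with CALCA listed at 0 in both. The 6 epithelial markers summed to 197 and 135 TPM, mostly KRT18 (136 and 94.0 TPM) and KRT8 (49.8 and 37.0 TPM). KRT7 was 11.1 and 3.39 TPM, KRT19 0.304 and 1.05 TPM and CDH1 0.116 and 0.0404 TPM, with EPCAM at 0 in both. The 5 leukocyte markers summed to 0.457 and 0.598 TPM, the 5 endothelial markers to 2.75 and 1.70 TPM, and the 6 fibroblast markers to 1.52 and 7.85 TPM. COL1A1 made up most of the last (1.04 and 6.67 TPM). The part of these markers in any difference below was not tested, and fewer cells of a type and less RNA per cell cannot be told apart in such bulk RNA.

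RET (ENSG00000165731, chr10:43077027-43130351, plus strand) stood at 34.7 TPM with control siRNA and 34.5 TPM with XPR1 siRNA, from about 1013 and 968 reads. The values were nearly equal. The ratio of XPR1-siRNA to control was 0.993, with a 95% Clopper-Pearson counting interval of 0.909 to 1.09. How far RET varies between cultures cannot be seen from 1 library per condition. RET ranked above 73.7% of protein-coding genes with any reads.

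CCDC6 (ENSG00000108091, chr10:59788763-59906656, minus strand) was 1.01 TPM in control and 0.916 TPM with XPR1 siRNA, from about 31 and 27 reads. It had the lowest level of the 10 genes in both libraries and ranked above only 23.1% of protein-coding genes with any reads. Its ratio was 0.905, and the interval of 0.520 to 1.57 is wide because of the few reads. RET was 34.3 times as high as CCDC6 in control (24.0 to 50.8) and 37.7 times with XPR1 siRNA (25.7 to 57.5). Those intervals overlap.

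A gene-level TPM divides reads by all exons of a gene, and the fusion holds only part of each gene. The exons of RET from exon 12 on hold 4073 of its 6911 exonic bases (58.9%), and CCDC6 exon 1 holds 535 of 7345 (7.28%). If every RET read came from exon 12 onward, the level over those bases would be 58.9 TPM in control and 58.5 TPM with XPR1 siRNA. If every CCDC6 read came from exon 1, its level there would be 13.9 and 12.6 TPM. How the reads split between exons, and between the fusion and the unrearranged genes, is not recorded in gene-level values.

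CCDC6 also stood low beside other genes known to be fused to RET in tumours. All 20 of them were above CCDC6 in both libraries. Their levels ran from 3.19 to 276 TPM in control and from 3.87 to 363 TPM with XPR1 siRNA. The median was 38.9 TPM in control, 38.4 times the gene-level value of CCDC6. That value divides CCDC6 reads by all its exons, while the fusion holds only exon 1. If every CCDC6 read came from exon 1, its level there would be 13.9 and 12.6 TPM, no longer below all 20 partners. PPFIBP2 was the lowest (3.19 and 3.87 TPM) and NCOA4, a ferritin receptor of autophagy and the next most common partner in thyroid tumours, the highest (276 and 363 TPM). AFAP1L2 was the only partner at least 1.5-fold higher with XPR1 siRNA (46.1 and 104 TPM). SQSTM1, the autophagy receptor p62, was the only one at least 1.5-fold lower (203 and 94.2 TPM), although 2 were under each of 3 other scalings. These single calls were 5% of the partners in each direction, beside 21.7% higher and 16.6% lower among all genes.

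**Figure D1:**
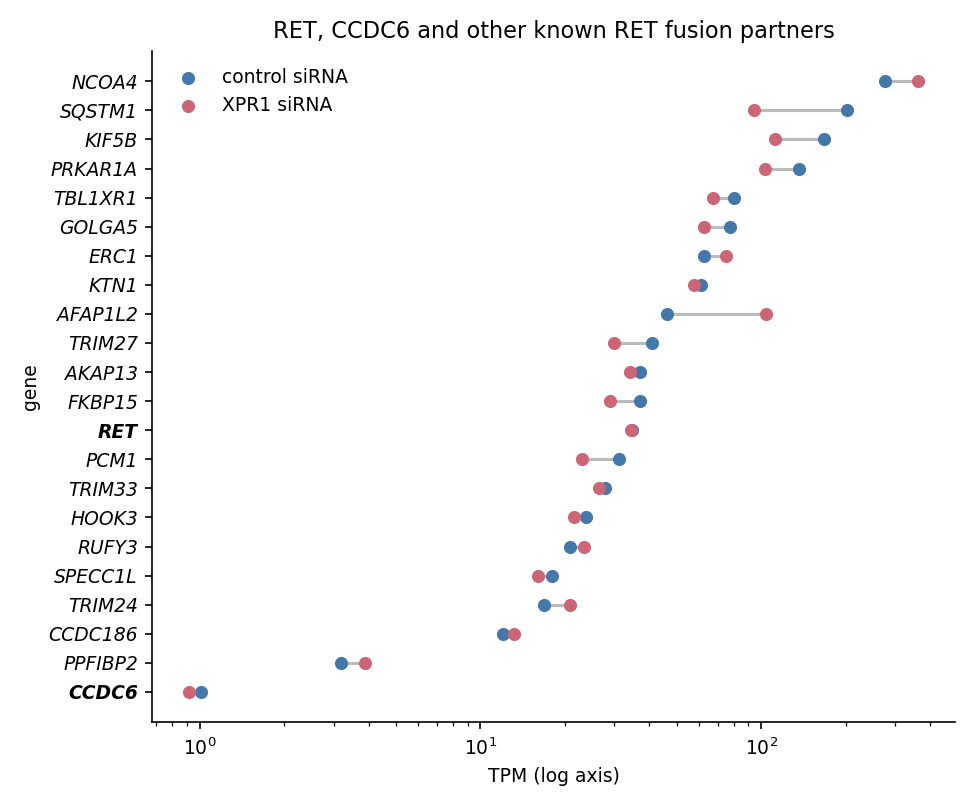
TPM on a log axis of RET, CCDC6 and 20 other genes known as RET fusion partners, sorted by the control library, with 1 point per library. On gene-level TPM, CCDC6 lies at 1.01 and 0.916 TPM, below all 20 others, and the 2 points of RET coincide near 34.6 TPM.

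The levels of the neighbours of the fusion partners on chromosome 10 are given here, an inspection chosen after the values were seen. The share of all protein-coding genes that reach 1 TPM in either library was not computed. The counts below are therefore not a result about either neighbourhood. Within 1000 kb of RET, 8 of 10 protein-coding genes reached 1 TPM in either library. They included CSGALNACT2, 8.14 kb away, a chondroitin sulfate enzyme, at 106 and 49.1 TPM, and HNRNPF, 255 kb away, a splicing factor, at 394 and 424 TPM. Within 1000 kb of CCDC6, 3 of 8 did so, and these were the 3 farthest away: the RNA-binding protein gene BICC1 (2078 and 6850 reads), the cell cycle kinase CDK1 (23.9 and 55.5 TPM) and RHOBTB1 (3.82 and 13.6 TPM). The 5 nearer genes were all under 1 TPM. PHYHIPL, FAM13C, SLC16A9 and MRLN were listed at 0 in both libraries, and ANK3 was 0.0276 and 0.0861 TPM from 3 and 9 reads. On the unrearranged reference, the nearest protein-coding gene to CCDC6 that reached 1 TPM was thus 872 kb away. Neighbours on the rearranged copy of chromosome 10 can differ and were not examined.

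**Figure D2:**
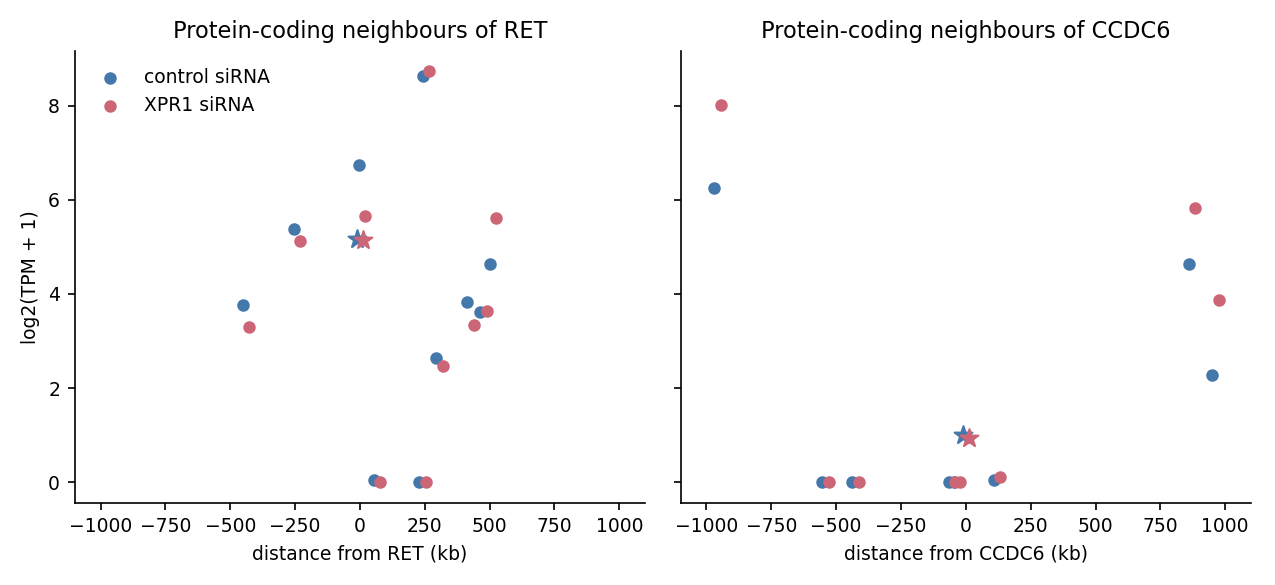
Level, as log2(TPM + 1), of protein-coding genes within 1000 kb of RET (left) and CCDC6 (right) against distance in kb on the unrearranged reference. Distances are negative toward lower coordinates, stars mark RET and CCDC6 themselves, and the points of the libraries are set slightly apart. CCDC6 and the 5 nearest genes lie at or below about 1 on this scale, and 8 of 10 neighbours of RET lie above it. The share of all protein-coding genes above it was not computed.

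Of the 10 genes, GFRA1 differed most. GFRA1 (ENSG00000151892, chr10:116056925-116273467, minus strand), the membrane-anchored co-receptor that binds GDNF, was 13.1 TPM in control and 56.5 TPM with XPR1 siRNA, from 537 and 2222 reads. The XPR1-siRNA library was 4.30-fold higher (3.91 to 4.73). On the log2(TPM + 1) scale, which understates differences of low genes, this was 2.02. On gene-level TPM it moved GFRA1 from the seventh to the fourth place in level among the 10 genes. Relative to RET in the same library, GFRA1 was 0.378 in control (0.340 to 0.421) and 1.64 with XPR1 siRNA (1.52 to 1.77). On gene-level TPM GFRA1 was thus below RET in the first and above it in the second. If every RET read came from exon 12 onward, RET would be 58.9 and 58.5 TPM, and GFRA1 would be below it in both. A ratio within a library does not depend on how the libraries are scaled.

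GFRA1 was the only co-receptor of its family with reads. GFRA2, GFRA3 and GFRA4, and GFRAL, the receptor subunit for GDF15, were listed at 0 in both libraries. GDNF, the ligand of GFRA1, differed in the other direction, with 4.45 and 0.692 TPM from 80 and 12 reads, 6.44-fold lower (3.48 to 12.9). The neurturin gene NRTN was listed at 0 in both, where 3 reads, the limit that a count of 0 allows, would be 0.641 and 0.666 TPM. Artemin (ARTN) was 0.803 and 0.278 TPM from 9 and 3 reads, and persephin (PSPN) 3.03 and 2.20 TPM. GDF15, a stress-induced cytokine that acts on RET through GFRAL, was 121 and 39.3 TPM, 3.07-fold lower (2.71 to 3.48). Of the alternative GDNF receptors, the neural adhesion molecule NCAM1 was 0.223 and 1.06 TPM and the proteoglycan SDC3 62.0 and 141 TPM, 2.27-fold higher (2.15 to 2.40). Of the 11 genes in this list 4 passed the floor of a mean of 1 TPM over the libraries. Of the 4, 1 (25%) was at least 1.5-fold higher and 2 (50%) lower, beside 21.7% and 16.6% of all genes. The median of these 4 was -0.96, against 0.05 over all genes, and depended on the setting: it was -0.44 with a pseudocount of 5, -0.21 over the 2 genes that pass a floor of 5 TPM and 0 over all 11. GDNF passed the floor only through its control level.

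The docking proteins that bind the RET tail differed in both directions. SHC1 (ENSG00000160691, chr1:154962298-154974395, minus strand), a phosphotyrosine adaptor that leads to RAS, was 247 and 367 TPM, from 4520 and 6462 reads. It was the highest of the 10 genes in both libraries and 1.49-fold higher with XPR1 siRNA (1.43 to 1.54), just short of the 1.5-fold threshold. FRS2 (ENSG00000166225, chr12:69470349-69579789, plus strand), a lipid-anchored docking protein that is also the main adaptor of FGF receptors, was 29.6 and 17.7 TPM. FRS2 had a ratio of 0.598 (0.536 to 0.666), or 1.67-fold lower, and was the only one of the 10 past 1.5-fold in that direction. DOK1 (ENSG00000115325, chr2:74549026-74557554, plus strand), which recruits a GTPase activator that turns RAS off, was 11.9 and 19.5 TPM, 1.64-fold higher (1.33 to 2.02). SHC1 and DOK1 were thus higher and FRS2 lower in the XPR1-siRNA library.

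Set against each other within a library, FRS2 was 0.120 of SHC1 in control (0.112 to 0.129) and 0.0483 with XPR1 siRNA (0.0441 to 0.0529), a 2.49-fold lower ratio. DOK1 was 0.401 of FRS2 in control (0.336 to 0.477) and 1.10 with XPR1 siRNA (0.939 to 1.28). Against RET, SHC1 went from 7.10 to 10.6, FRS2 from 0.853 to 0.514 and DOK1 from 0.342 to 0.564, and in each case the intervals of the 2 libraries did not overlap. The transcripts of these 3 docking proteins stood in other proportions in these 2 libraries. How many pairs of other genes have separate intervals was not computed, so the separation is not a result about these pairs.

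GRB2, the adaptor that these docking proteins share, was lower together with SOS1. GRB2 (ENSG00000177885, chr17:75318076-75405709, minus strand) was 96.6 and 76.6 TPM, 1.26-fold lower (1.18 to 1.35). SOS1 (ENSG00000115904, chr2:38981396-39124345, minus strand), the exchange factor that GRB2 carries to RAS, was 41.5 and 30.4 TPM, 1.36-fold lower (1.26 to 1.47). SOS1 per GRB2 was 0.429 in control (0.401 to 0.459) and 0.397 with XPR1 siRNA (0.367 to 0.430), and these intervals overlap. The ratio changed 0.926-fold, with an approximate interval from the 4 read numbers of 0.836 to 1.03. SHC1 per GRB2 went from 2.55 (2.42 to 2.69) to 4.78 (4.52 to 5.07).

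GAB1 and PTPN11 were higher. GAB1 (ENSG00000109458, chr4:143336762-143474568, plus strand), the docking protein through which GRB2 reaches PI3K, was 2.41 and 5.26 TPM, from 103 and 216 reads. It was 2.18-fold higher (1.72 to 2.78) but only 0.87 on the log2(TPM + 1) scale, under 2-fold there, because its level is low. PTPN11 (ENSG00000179295, chr12:112418351-112509913, plus strand), the phosphatase SHP2, which favours RAS activation, was 168 and 202 TPM, 1.20-fold higher (1.16 to 1.25). GAB1 per GRB2 was 0.0250 in control (0.0203 to 0.0304) and 0.0686 with XPR1 siRNA (0.0592 to 0.0792). GAB1 nevertheless was the ninth of the 10 genes in level in both libraries, with PTPN11 69.8 times as high in control (57.4 to 85.7) and 38.5 times with XPR1 siRNA (33.6 to 44.3).

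**Figure D3:**
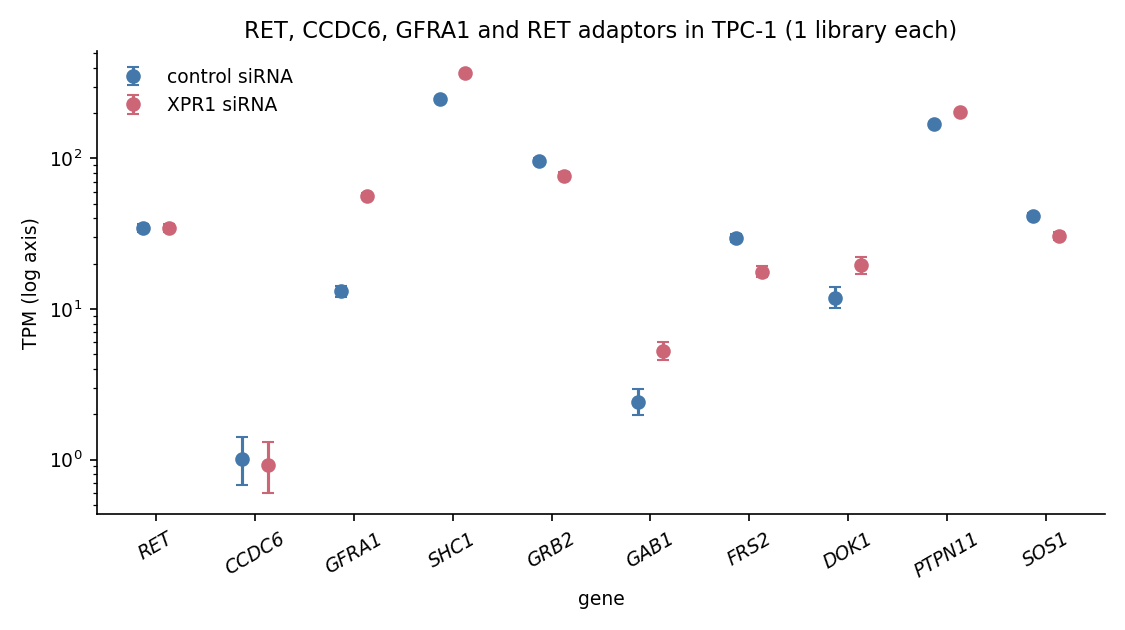
TPM on a log axis of the 10 genes in the control library (blue) and the XPR1-siRNA library (red), where bars are exact 95% Poisson intervals from recovered reads and hidden where shorter than the point. RET and CCDC6 overlap between the libraries, GFRA1, SHC1, GAB1, DOK1 and PTPN11 are higher with XPR1 siRNA, and GRB2, FRS2 and SOS1 lower.

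The order of levels among the 10 genes began with SHC1, PTPN11 and GRB2 and ended with GAB1 and CCDC6 in both libraries. In control, neighbours in the order had separate counting intervals except GFRA1 and DOK1 (13.1 and 11.9 TPM). After XPR1 siRNA the exception was DOK1 and FRS2 (19.5 and 17.7 TPM). RET held the fifth place in both on gene-level TPM. If every RET read came from exon 12 onward, its level would be 58.9 and 58.5 TPM. That would lie above SOS1 in control (41.5 TPM) and above GFRA1 with XPR1 siRNA (56.5 TPM).

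**Figure D4:**
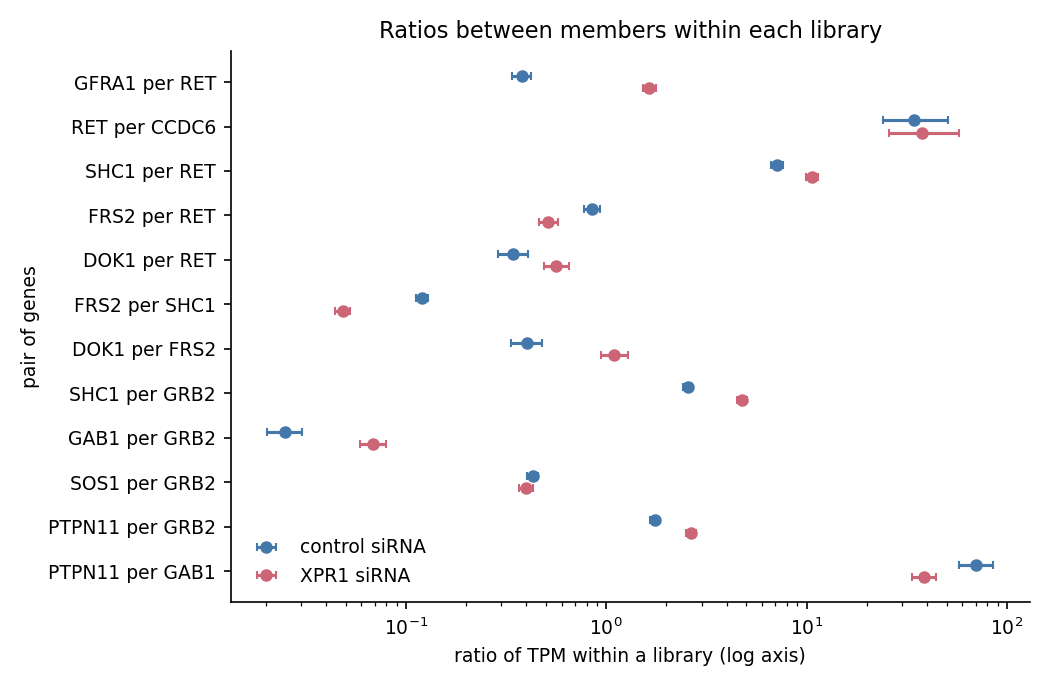
Ratio of gene-level TPM between pairs of the 10 genes within each library, on a log axis, for 12 pairs with 95% Clopper-Pearson intervals. RET per CCDC6 and SOS1 per GRB2 overlap between the libraries, whereas GFRA1 per RET goes from 0.378 to 1.64 and FRS2 per SHC1 from 0.120 to 0.0483.

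Counted together, 9 of the 10 genes had a mean of at least 1 TPM, and CCDC6, at a mean of 0.964 TPM, did not. Of the 9, 3 (GFRA1, GAB1 and DOK1) were at least 1.5-fold higher and 1 (FRS2) at least 1.5-fold lower. Among all 16319 genes over the same floor, 21.7% were at least 1.5-fold higher and 16.6% lower, and among the 11698 protein-coding ones 20.7% and 11.1%. These counts are near that background, and with a pseudocount of 5 only 1 was at least 1.5-fold higher. GFRA1 was at least 2-fold higher and none was lower, against 10.4% and 8.57% of all genes and 8.75% and 4.57% of protein-coding ones, and GAB1 also passed 2-fold with a pseudocount of 0.1 or recovered reads. The median of the 9 was 0.26 on the log2 scale, beside 0.05 over all genes. Of the 9, 8 (all but RET) had a counting interval that excluded equality. The share of all genes with such an interval was not computed, so this count is not a result about the members. It was 12 of 13 among recruited enzymes, 16 of 20 among other fusion partners and 10 of 19 among other docking proteins. No direction of any of the 10 turned under the alternatives tried.

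The adaptors differed in their share of the transcripts of their gene families. SHC1 made up 93.9% of the TPM of the 4 SHC genes in control and 94.7% with XPR1 siRNA, with SHC2 at 15.7 and 20.0 TPM and SHC3 and SHC4 under 1 TPM. GAB1, by contrast, held 13.5% and 25.8% of the GAB genes, beside GAB2 (8.32 and 9.42 TPM) and GAB3 (7.15 and 5.70 TPM). FRS2 held 87.1% and 81.4% of the FRS pair, and FRS3 was 4.39 and 4.05 TPM. SOS2, the paralog of SOS1, was 34.2 and 21.3 TPM, 1.61-fold lower (1.45 to 1.78), so that both SOS genes were lower. In the DOK family DOK1 held 67.7% and 59.4%, and DOK4, which like DOK1 is known to bind RET, was 5.15 and 12.5 TPM, 2.43-fold higher (1.92 to 3.09). DOK2, DOK5 and DOK7 were listed at 0 in both, as was PTPN6, the blood cell relative of PTPN11.

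The other docking and adaptor proteins of RET also differed in both directions. Of 27 listed, 19 passed the floor, of which 2 (10.5%) were higher and 3 (15.8%) lower, beside 21.7% and 16.6% of all genes, with a median of -0.04. The higher ones were DOK4 and GRB14 (11.6 and 24.3 TPM), an SH2 adaptor that binds activated receptors. The lower ones were its relative GRB10, the adaptor SH2B3 (105 and 61.3 TPM) and IRS2 (20.4 and 11.9 TPM). GRB10, an inhibitory adaptor of the insulin receptor, was 74.5 and 24.9 TPM, 2.99-fold lower (2.78 to 3.22). GRB10 and GRB14, relatives with the same domain layout, thus differed in opposite directions.

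Of 16 enzymes recruited to RET, 13 passed the floor, with 4 (30.8%) higher, 3 (23.1%) lower and a median of 0.12, beside 21.7%, 16.6% and 0.05 over all genes. With trimmed-mean scaling 2 were higher. The phospholipase PLCG1, which binds RET directly, was 23.9 and 43.3 TPM, 1.81-fold higher (1.68 to 1.96). The exchange factor RASGRF2 was 9.86 and 21.5 TPM, the ubiquitin ligase CBLB 3.53 and 6.05 TPM, and the receptor phosphatase PTPRF 106 and 163 TPM. PIK3R1, the regulatory subunit that ties PI3K to GAB1, was 40.4 and 16.1 TPM, 2.51-fold lower (2.30 to 2.74), and the kinase SRC 111 and 71.1 TPM. PIK3R1 was therefore lower in the library in which GAB1 was higher.

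In the RAS to ERK core, 19 of 20 genes passed the floor, with 3 (15.8%) higher, 2 (10.5%) lower and a median of 0.17. These shares are below the 21.7% and 16.6% of all genes, and with a pseudocount of 5 only 1 was lower. The GTPase activator RASAL1 was 0.640 and 4.71 TPM, the kinase MAPK3 (ERK1) 39.4 and 83.4 TPM and the GTPase RRAS2 298 and 534 TPM. RASAL1 passed the floor only through the XPR1-siRNA library, and at a floor of 5 TPM 2 genes of this list were higher. The kinase MAP2K1 (MEK1) was 84.7 and 45.7 TPM, 1.85-fold lower (1.69 to 2.03), and the scaffold KSR1 7.41 and 4.53 TPM. In the PI3K to AKT core, 12 of 13 passed the floor, none was at least 1.5-fold higher and 1 lower, MTOR at 41.4 and 21.8 TPM, with a median of -0.15. The number lower was 3 under each of 3 other scalings, with a pseudocount of 0.1 and with recovered reads.

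Transcripts listed as ERK-dependent were mostly lower with XPR1 siRNA. The part of RET, whose gene-level value was nearly equal in the libraries, was not tested. Among 23 over the floor, 14 lay at or beyond 1.5-fold on the lower side and 3 on the higher side. Their median was -0.87, beside 0.05 over all genes and the shares of 16.6% and 21.7% over all genes. This list was written with an earlier result of these data in view, which had shown such genes lower, so its direction is not independent evidence. The farthest in the list were PHLDA1 (768 and 134 TPM), EGR1 (121 and 28.3 TPM), PHLDA2 (104 and 30.8 TPM) and the ERK phosphatase DUSP5 (489 and 156 TPM). Those higher were EPHA4, ETV1 and DUSP3, at 3.85-fold, 1.87-fold and 1.62-fold.

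Of 17 transcription factors reported at the RET gene, 8 passed the floor and their median was 0.00. EGR1, given above, was the only one past 1.5-fold, although 2 were lower with trimmed-mean scaling. The neural crest factors SOX10, PHOX2A and PAX3 did not reach the floor, with PHOX2A and PAX3 listed at 0 in both libraries and SOX10 at 0 and 0.0602 TPM. Other receptor kinases studied in thyroid and other tumours had a median of 0.71 over the 10 of 19 that passed the floor, with 5 higher and 1 lower, beside 21.7% and 16.6% of all genes. The median was 0.35 with no floor and at a floor of 5 TPM, where 3 were higher, and 0.37 with a pseudocount of 5. FGFR3, at 0.929 and 6.05 TPM, passed the floor only through the XPR1-siRNA library. FGFR4, FGFR3, ERBB2 and FGFR1 were 6.24-fold, 6.51-fold, 2.31-fold and 2.13-fold higher, and EGFR was 264 and 111 TPM, 2.37-fold lower (2.30 to 2.44).

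**Figure D5:**
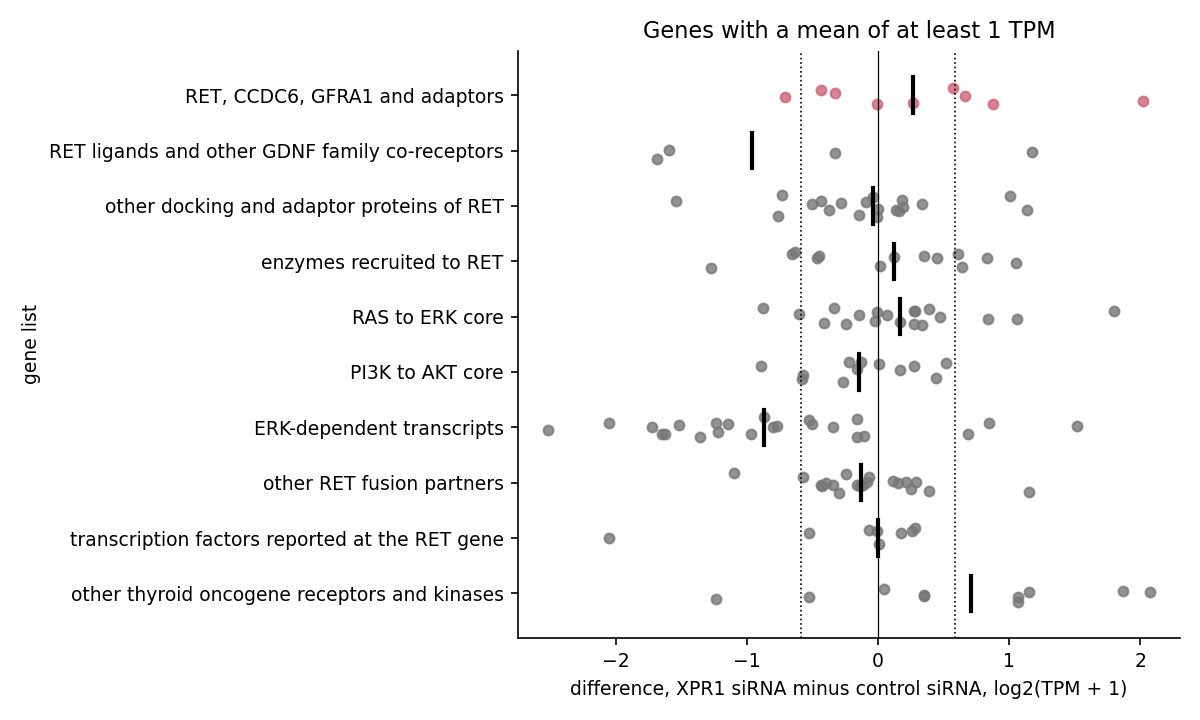
Difference between the libraries on the log2(TPM + 1) scale for the 10 genes (top, red; 9 shown) and 9 lists of related genes, each point a gene with a mean of at least 1 TPM, bars the list medians and dotted lines 1.5-fold. Transcripts listed as ERK-dependent have a median of -0.87. The median of the 9 genes is 0.26, and GFRA1 lies farthest to the right among them at 2.02.

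Some values rest on reads that other genes can share, since the library kit does not mark strand. Of the 10 genes, 7 have no annotated gene over their exons. SHC1 shares 335 exonic bases with PYGO2 on the same strand (47.6 and 48.8 TPM), 326 with an antisense gene, AL451085.2 (0.593 and 0.308 TPM), DOK1 shares 216 with LOXL3 on the other strand (0.734 and 0.872 TPM), and PTPN11 shares 111 with RPL6 (660 and 674 TPM). PTPN11 has 5 processed copies in the table, none above 3.46 TPM, and SHC1 has 2, both listed at 0. How reads shared with these genes were assigned is not given in the sources used here.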

How the data were processed

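RNA of 2 TPC-1 libraries was sequenced after TruSeq v2 preparation, per the labels' protocols. Trimmomatic 0.38 and featureCounts 2.0.0, with GRCh38, are named, per the submitters' processing notes, beside quality reports. For the aligner and annotation nothing is given in the sources used here. Values are TPM as deposited by the authors, summing to 1000000 per library.

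Gene symbols came from a table of identifiers, and positions and exonic lengths from GENCODE 29. Differences are log2(TPM + 1), XPR1 siRNA minus control, over genes whose mean TPM is 1 or more. Ratios are of TPM. TPM times exonic length fell on multiples of 237 and 246, taken as 1 read. Up to 10 reads, 92.2% and 92.4% of values were within 0.01 of a whole number. For 8 of the 10 genes the reads were whole in both libraries. Those of RET and CCDC6 were not and are approximate. Lacking molecular identifiers, reads may be copies of one molecule, so intervals can be too narrow. Scripts used Python 3.11.15 and scipy 1.17.1 and were tested on simulated data. Alternatives were other pseudocounts, floors, scalings, a protein-coding background and recovered reads.

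The 10 genes and the 9 lists (166 genes) were chosen with earlier results of these data known. The rule names every ligand and co-receptor, up to 4 genes per direction past 1.5-fold from the other lists, adaptor paralogs and ERK core kinases. Other names were chosen after their values were seen: markers, PPFIBP2, NCOA4, neural crest factors, chromosomal neighbours and overlapping genes. The 12 gene pairs were also chosen then. Some genes of the lists are not reported here by name.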

Additional observations from a re-analysis of the deposited data

How the results depend on the processing

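No paired analysis was possible because there is only 1 library per condition, which also leaves no replicate to omit. The values were recomputed under 9 alternatives. With a pseudocount of 5, members at least 1.5-fold higher numbered 1, lower genes of the RAS to ERK core 1, the median of other receptors was 0.37 and that of ligands and co-receptors -0.44. Members at least 2-fold higher numbered 2 with a pseudocount of 0.1 and with recovered reads, as GAB1 then passed. The members' median was 0.13 with no filter on low values and at a floor of 5 TPM, which add CCDC6 and drop GAB1. With no filter, ligands and co-receptors had 2 higher and a median of 0, and other receptors a median of 0.35. At 5 TPM, ligands and co-receptors had 1 lower and a median of -0.21 over 2 genes. At that floor other receptors had 3 higher and a median of 0.35, and transcripts listed as ERK-dependent a median of -1.06. PI3K core genes at least 1.5-fold lower numbered 3 with a pseudocount of 0.1, the 3 scalings and recovered reads. Fusion partners at least 1.5-fold lower numbered 2 under all 3 scalings. With trimmed-mean scaling, recruited enzymes had 2 higher, and transcription factors and other receptors 2 lower each. The median of the transcription factors, near 0, turned to -0.0519 (median-of-ratios), -0.0424 (upper-quartile), -0.0657 (trimmed-mean) and -0.0053 (5 TPM). The cause of these shifts was not tested beyond the genes each setting counts. The scalings moved all values by at most 0.07 on the log2 scale. For SHC1 and PTPN11, median-of-ratios and trimmed-mean scaling moved the difference by more than its counting error. SHC1 went from 0.57 to 0.51 and 0.50, and PTPN11 from 0.26 to 0.21 and 0.195. With a pseudocount of 5, GFRA1 was 1.76 and GAB1 0.47. Of all genes, 12.7% were higher and 9.1% lower with a pseudocount of 5, and 10.5% lower with recovered reads. Few reads limit the comparison of CCDC6.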

Other observations

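The MEK kinases downstream of RET stood in other proportions in the 2 libraries. MAP2K1 held 57.1% of the summed TPM of MAP2K1 and MAP2K2 in control and 39.0% with XPR1 siRNA, while MAP2K2 was 63.6 and 71.5 TPM. Of the kinases above them, BRAF was 7.47 and 7.44 TPM and ARAF 34.7 and 42.2 TPM. These values were set side by side after they were seen, and the difference between the libraries was not tested.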
